A study of Mus musculus with 4 samples.

Results

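The genes described here encode the nuclear part of the mitochondrial respiratory chain and are accompanied by Lyrm7, an assembly factor of complex III. They were chosen by name, with earlier results of these data known. The selection took every gene whose symbol starts with Nduf, Uqcr or Cox4 to Cox8, together with Sdha, Sdhb, Sdhc, Sdhd, Cyc1, Cycs, Bcs1l and Lyrm7. This gave 75 of the 22180 genes tested, measured by 84 probe sets and spread over 18 chromosomes. All 75 were matched by gene ID to RefSeq, and 9 further symbols of the same families are not analysed here because their probe sets carry several gene names.

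The study compared macrophages of mice of the strains DBA/2J (DBA) and 129S6 (129), to ask which genes are expressed differently between them. All mice were wild type, 3 months old and fed regular chow. Each was injected with 1 ml of 4% thioglycollate, an irritant broth that draws monocytes into the peritoneal cavity where they become macrophages, and the cells were collected 4 days later and cultured overnight. RNA was pooled by strain and sex, so the groups were a DBA female and a DBA male pool and a 129 female and a 129 male pool, each measured on 1 whole-transcript Affymetrix array. The labels give 3 mice for each pool, and no pool was repeated. The methods of the study state a larger number of mice for a pool, and this was not resolved. The female and male pool of a strain therefore served as its 2 replicates, and the spread within a strain includes any difference between the sexes. The sources name no sorting step, and in RNA from many cells a lower level can come from fewer cells of a type or from less RNA in each cell, which cannot be told apart.

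The respiratory chain sits in the inner mitochondrial membrane. Complex I takes electrons from NADH and complex II takes them from succinate, both pass them to ubiquinone, complex III hands them to cytochrome c, and complex IV gives them to oxygen. Complexes I, III and IV pump protons, and the ATP synthase uses the returning flow. Most subunits are encoded in the nucleus and imported, and dedicated assembly factors insert the metal centres. In macrophages the balance between respiration and glycolysis is known to shift when the cells are activated.

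Lyrm7 belongs to the LYR motif proteins, small proteins of the mitochondrial matrix. In human cells it holds the Rieske iron-sulfur protein, Uqcrfs1, before Bcs1l moves that protein across the membrane into complex III. Lyrm7 lies on chromosome 11, and the 250 bases before the start of Lyrm7 are shown with those before Uqcrfs1, its client, Bcs1l, the translocase of the same step, and Cox5a, the complex IV subunit with the largest difference. The sequences come from RefSeq for mouse build GRCm38.p6, which was made from C57BL/6J, neither of the strains studied. Each is given in the direction of transcription, and the windows are chr11:54860598-54860847 (minus strand) for Lyrm7, chr13:30545317-30545566 (minus strand) for Uqcrfs1, chr1:74588039-74588288 (plus strand) for Bcs1l and chr9:57520982-57521231 (plus strand) for Cox5a. Capitals mark an ETS core (CGGAAG, or CTTCCG on the other strand) or a CCAAT box (CCAAT, or ATTGG on the other strand).
Lyrm7: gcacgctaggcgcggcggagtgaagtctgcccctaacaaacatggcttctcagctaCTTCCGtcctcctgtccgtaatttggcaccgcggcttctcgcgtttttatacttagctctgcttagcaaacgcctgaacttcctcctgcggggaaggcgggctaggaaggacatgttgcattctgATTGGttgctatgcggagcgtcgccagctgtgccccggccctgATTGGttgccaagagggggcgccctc
Uqcrfs1: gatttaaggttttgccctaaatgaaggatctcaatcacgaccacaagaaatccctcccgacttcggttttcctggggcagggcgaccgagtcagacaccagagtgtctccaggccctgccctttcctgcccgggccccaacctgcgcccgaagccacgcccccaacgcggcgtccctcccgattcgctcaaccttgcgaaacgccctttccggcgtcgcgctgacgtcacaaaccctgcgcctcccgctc
Bcs1l: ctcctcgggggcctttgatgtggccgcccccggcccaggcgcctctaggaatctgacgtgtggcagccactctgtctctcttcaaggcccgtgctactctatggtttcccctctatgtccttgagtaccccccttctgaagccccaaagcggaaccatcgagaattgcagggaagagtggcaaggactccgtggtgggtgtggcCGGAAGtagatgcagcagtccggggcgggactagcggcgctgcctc
Cox5a: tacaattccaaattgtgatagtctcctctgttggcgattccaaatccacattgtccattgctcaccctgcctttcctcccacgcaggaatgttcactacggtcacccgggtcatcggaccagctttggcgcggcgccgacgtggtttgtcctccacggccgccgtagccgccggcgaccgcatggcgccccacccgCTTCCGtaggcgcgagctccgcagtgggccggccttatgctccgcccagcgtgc

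In the Lyrm7 window an ETS core began 194 bases before the start, and CCAAT boxes began 69 and 26 bases before it. Bcs1l had an ETS core 46 bases and Cox5a 54 bases before the start, and the Uqcrfs1 window held none of the motifs searched. RefSeq promoters were at hand for 60 of the 75 genes, with 62 start sites. The ETS core was in 21 of these 62 windows (33.9%), against 13.6% of all 32851 windows of the same length. The NRF1 core (GCATGCGC, or GCGCATGC on the other strand) was in 7 windows (11.3%), against 2.26% of all, and these belonged to Cox6a1, Cycs, Ndufa11, Ndufa6, Ndufa8, Ndufaf4 and Sdhb. The CCAAT box was in 23 windows (37.1%), against 33.8% of all. The windows compared were not matched for GC content, so a motif share above that of all windows may not be particular to these genes. These counts describe letters in the reference genome and do not show that a factor binds there.

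Among the 75 genes, Lyrm7 was the one whose level differed between the strains past the threshold, an adjusted p under 0.05 over all genes. Its log2 level was 7.63 in the DBA female pool and 7.94 in the DBA male pool, against 5.49 in the 129 female pool and 5.53 in the 129 male pool. Every DBA value lay more than 2 log2 units above every 129 value, and the difference was positive in both sexes, at 2.14 in females and 2.41 in males. The mean log2 difference, DBA minus 129, was 2.27 ± 0.14 (SE, limma, adjusted p = 0.010), with a 95% confidence interval of 1.93 to 2.62 and a ratio of linear levels of 4.86. Of the 22180 genes, Lyrm7 ranked 11 by p and 17 by size of the rise in DBA.

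The size of this ratio rests on dim 129 values. As a reference for background, the 95th percentile of the mean levels of 1394 olfactory and vomeronasal receptor genes was taken, which was 7.17 on the log2 scale. Both 129 pools were below it and both DBA pools above it, so that against this reference the level in DBA was at least 1.53-fold higher. The call was lost when either 129 pool was left out (adjusted p = 0.062 without the female and 0.081 without the male) and when every probe set of the array was tested (adjusted p = 0.16). In the fit limited to genes above the reference Lyrm7 was not tested, since its mean over the 4 pools is below it. The array holds 1 probe set for Lyrm7 under a single symbol, so the value rests on that probe set alone. Probe sequences were not at hand, so whether the strains differ in sequence under these probes, which could alter the signal, was not tested. The RefSeq spans of 2 predicted genes, Gm18818 and Gm31490, overlap the gene.

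The genes of the proteins that act with Lyrm7 did not pass the threshold. Uqcrfs1 had log2 levels of 9.01 and 9.40 in DBA female and male pools, against 8.84 and 8.61 in 129 female and male pools. The DBA values both exceeded the 129 values, by 0.49 ± 0.17 on average (SE, adjusted p = 0.37), with a difference of 0.18 in females and 0.79 in males. Bcs1l had log2 levels of 8.80 and 9.06 in DBA female and male pools, against 8.94 and 8.71 in 129 female and male pools. Its pools overlapped, the mean log2 difference was 0.11 ± 0.15 (SE, adjusted p = 0.81), and the 95% confidence interval ran from -0.25 to 0.47. The plot of the complex III genes by pool shows the wide gap at Lyrm7 and the narrow ones at the other genes.

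**Figure D1:**
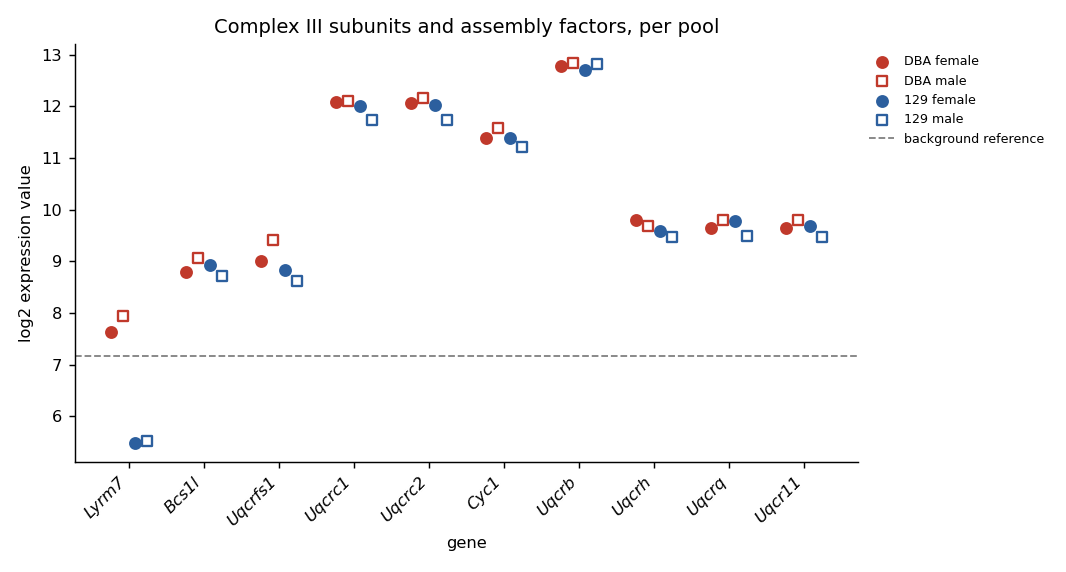
Log2 level in each pool for the assembly factors and subunits of complex III, with DBA pools in red left of 129 pools in blue, circles for females, squares for males and a dashed line at the background reference of 7.17. The Lyrm7 values of 7.63 and 7.94 in DBA lie above the line and those of 5.49 and 5.53 in 129 below it, whereas no other gene drawn has a difference above 0.49.

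The genes on either side of Lyrm7 on chromosome 11 were measured to see whether they differ in the same way. Genes with Gm, LOC or Rik symbols were passed over. Of the 10 nearest named genes measured, 5 on each side in gene order, none passed the threshold. Lyrm7os, the antisense transcript that starts beside Lyrm7, had log2 levels of 5.68 and 5.60 in DBA female and male pools, against 5.63 and 5.74 in 129 female and male pools. All of these are below the background reference, and the difference was -0.04. Hint1, a nucleotide-hydrolysing enzyme and the next named gene on the other side, differed by 0.12 with overlapping pools. Cdc42se2 differed by 0.08, Rapgef6 by 0.10, Tnip1 by 0.21, Ccdc69 by 0.15 and Meikin, which was below background in every pool, by 0.01.

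The pools of 3 neighbours did not overlap, with the DBA pools the lower ones. Of all genes, 21.4% were separated in this direction and 23.0% in the other, so such a count among 10 genes is not a result about the neighbourhood. Gpx3, a secreted glutathione peroxidase, had log2 levels of 8.29 and 7.89 in DBA female and male pools, against 8.79 and 8.60 in 129 female and male pools, a difference of -0.60 ± 0.17 (SE, adjusted p = 0.30). Fnip1 differed by -0.17 and Anxa6 by -0.21. The difference at Lyrm7 was thus not seen in the named genes measured beside it.

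**Figure D2:**
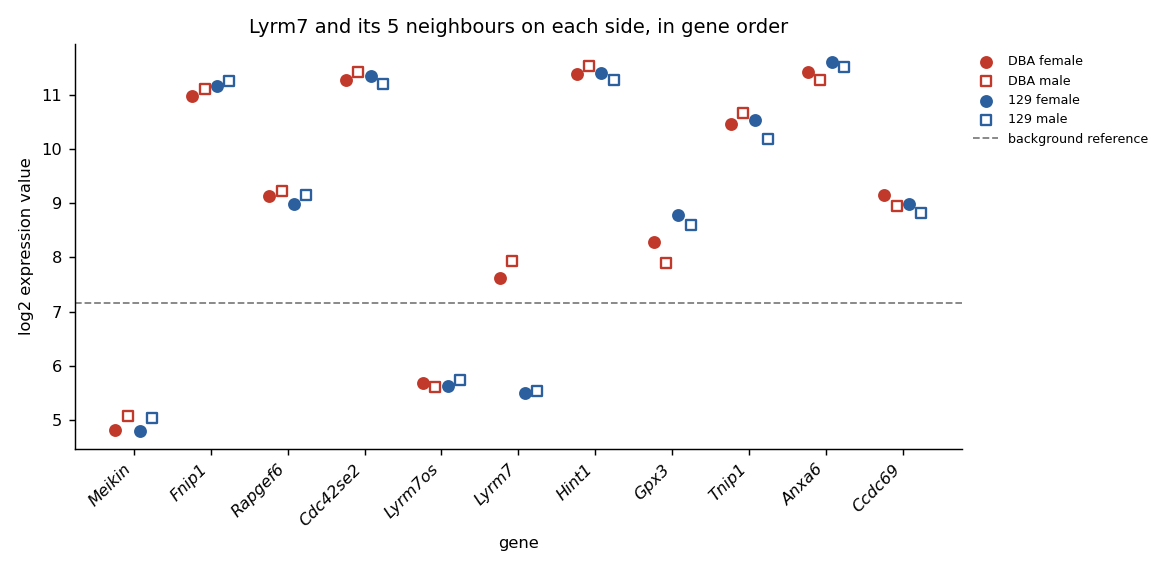
Log2 level in each pool for Lyrm7 and the 5 nearest named genes measured on each side in gene order on chromosome 11, with DBA pools in red left of 129 pools in blue, circles for females, squares for males and a dashed line at the background reference. Lyrm7 has a wide gap between the strains, a difference of 2.27, and for the other genes the differences lie between -0.60 and 0.21.

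The remaining 74 genes differed by at most 0.65 on the log2 scale. In simulated data the fit called 1.4% of changes of 0.5 and 50.2% of changes of 1, so differences of this size would mostly be missed. The mean was higher in DBA for 66 of all 75 genes (88%), against 51% of all genes tested. Their median log2 difference was 0.15, against 0.0045 over all genes, and the range was -0.44 to 2.27. A difference of more than 1.5-fold in either direction was found for 2 of the 75, Lyrm7 and Cox5a. The same held for 836 of all 22180 genes and for 640 of 13378 genes above background, so this count does not set the 75 apart.

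By the test across all genes, 83 genes (0.374%) passed the threshold in either direction and 48 (0.216%) were higher in DBA, and of the 75 genes Lyrm7 alone was among them. At an unadjusted p under 0.05, 6 of the 75 (8%) were higher in DBA, against 6.44% of all genes, and 1 (1.33%) was lower, against 5.08%. Both DBA pools lay above both 129 pools for 35 of the 75 genes (46.7%), against 23.0% of all genes. The opposite held for 2 of them (2.67%), against 21.4%, and the pools of the other 38 overlapped. The share at an unadjusted p under 0.05 is thus near the background and the share with separated pools is above it. Genes above background as a whole also leaned to DBA: of 13378 such genes, the DBA pools lay above in 29.6% and below in 17.8%, the median difference was 0.049, and 60% were positive. Of the 66 respiratory chain genes with a mean above background, 33 had DBA pools above and 1 had them below, with a median of 0.15. These 66 were brighter, with mean log2 levels of 10.07 to 10.41 in the pools, against 9.27 to 9.39 for other genes above background. The comparison was not matched for level, and whether level has a part in the lean was not tested. After quantile normalization the median of the 75 was 0.08.

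**Figure D3:**
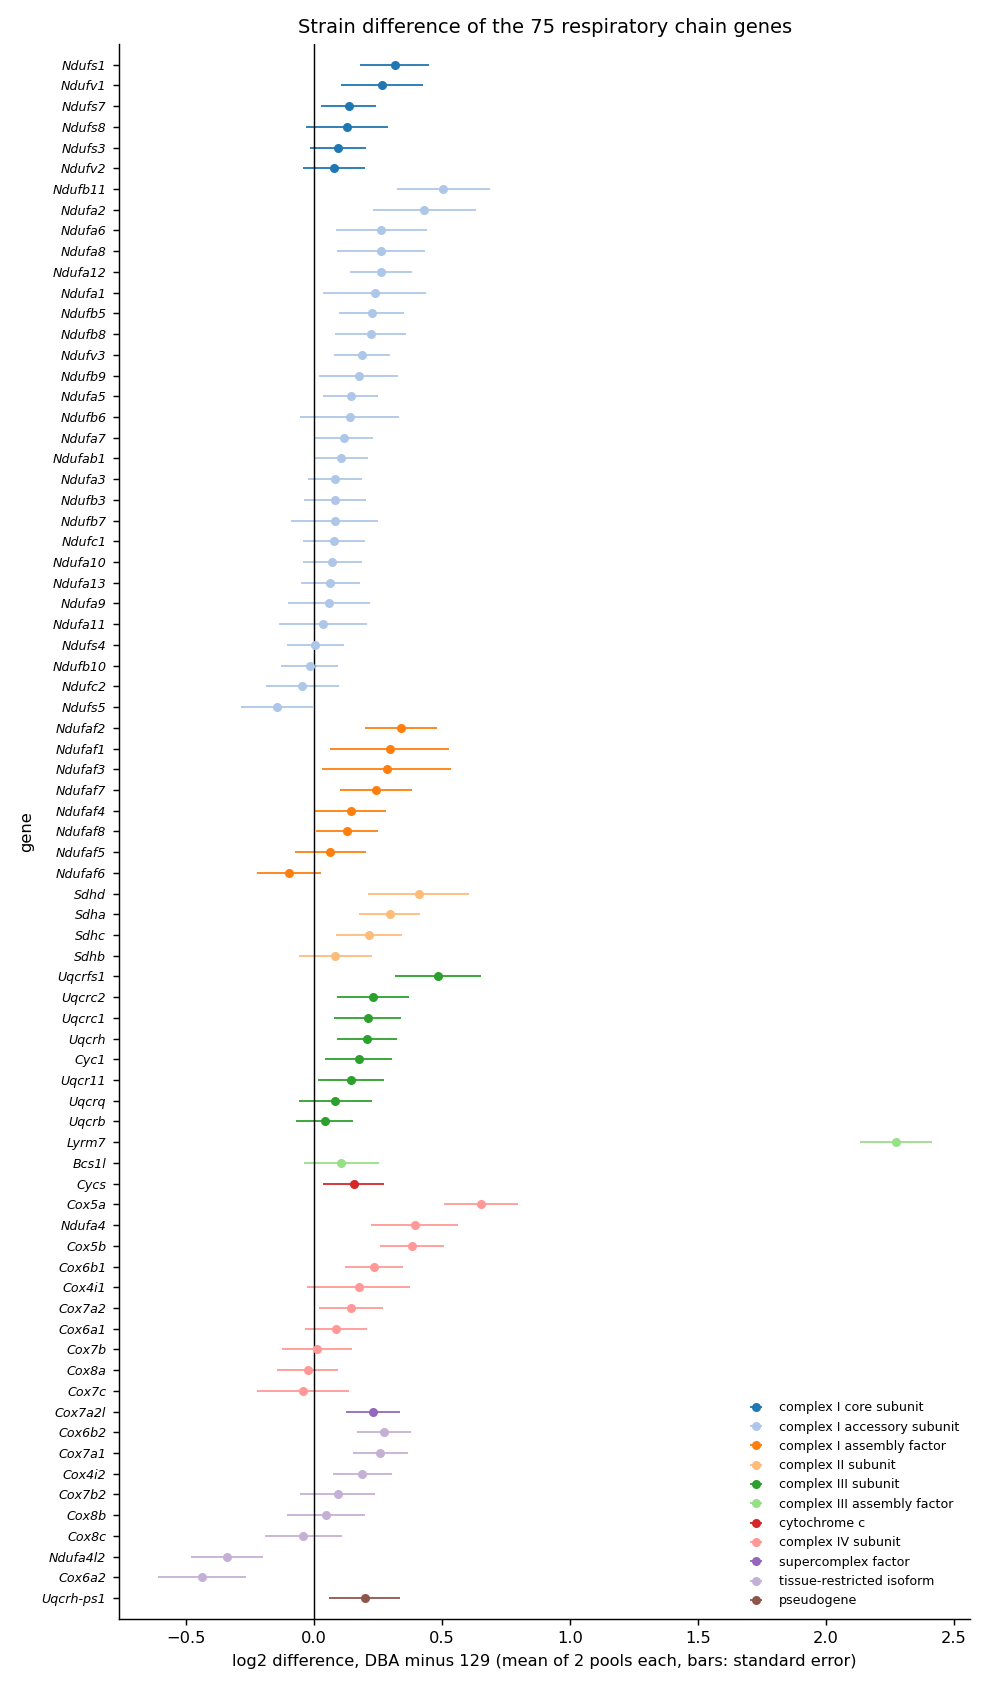
Log2 difference, DBA minus 129, for each of the 75 genes coloured and grouped by complex and role, with points at the difference of the means of 2 pools each and bars for the standard error. Apart from Lyrm7 at 2.27, the differences lie between -0.44 and 0.65, with 66 of 75 to the right of 0.

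The differences were larger between the male pools than between the female pools. The median difference over the 75 genes was 0.03 in females and 0.32 in males, against -0.02 and 0.12 for all genes above background. The 129 male pool was the lowest of the 4 in 59 of the 75 genes (78.7%), against 46.1% of genes above background. The mean log2 level over the 75 genes was 9.84 in the DBA female pool and 9.93 in the DBA male pool, against 9.80 in the 129 female pool and 9.61 in the 129 male pool. Without the 129 male pool the median difference was 0.07. Both DBA pools then lay above the 129 female pool in 38 of the 75 genes (50.7%), against 32.2% of all genes and 36.2% of genes above background. They lay below it in 13 (17.3%), against 35.4% and 29.9%. Separation from 1 pool is easier to reach than from 2, so these counts are to be read against those shares.

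Within the 129 strain the female pool was above the male pool for 61 genes (81.3%), against 67.1% of genes above background. Within the DBA strain the female pool was above the male pool for 18 genes (24%), against 35.3%. The median standard deviation of a gene between the pools of a strain was 0.072 in DBA and 0.16 in 129. The signs of the female and male differences were opposite for 35 of the 75 genes (46.7%), close to the 45.9% of all genes, and with 1 pool for each sex and strain the difference between the sexes could not be tested. In the comparison of female with male pools with strain in the model, 4 genes of all (0.0180%) passed an adjusted p under 0.05 and 1.73% an unadjusted p under 0.05, and none of the 75 was among either.

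**Figure D4:**
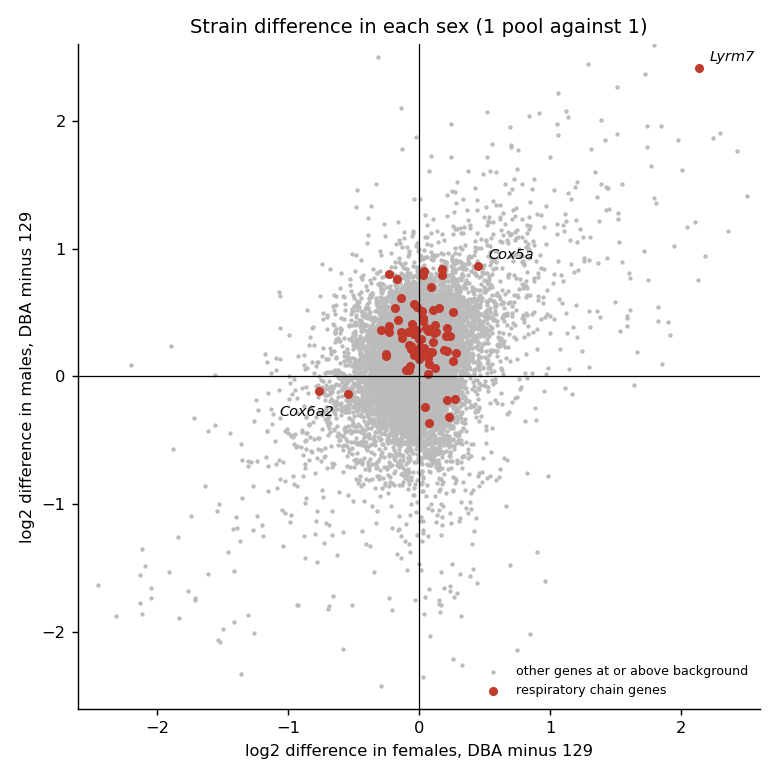
Log2 difference, DBA minus 129, in the female pools (horizontal axis) and in the male pools (vertical axis) for the 75 genes and for 13312 other genes above background, of which 18 lie outside the axes. Lyrm7 is far along both axes at 2.14 and 2.41, whereas the other respiratory chain genes lie mostly above the horizontal line at 0 and on both sides of the vertical one.

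Complex I, the NADH dehydrogenase, was represented by 6 core subunits, 26 accessory subunits and 8 assembly factors, and none passed the threshold. The counts by complex given from here on are to be read against genes above background. Of those, 60% had a higher mean in DBA, and DBA pools lay above in 29.6% and below in 17.8%. All 6 core subunits had a higher mean in DBA, with a median difference of 0.13, and the DBA pools lay above the 129 pools in 4. The largest was Ndufs1, the subunit with the most iron-sulfur clusters, at 0.32. Ndufv1, which binds NADH and the flavin cofactor, differed by 0.02 in females and 0.52 in males, and Ndufs7 and Ndufs8, which carry the clusters nearest to ubiquinone, by 0.08 and -0.09 in females and by 0.19 and 0.35 in males.

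Accessory subunits surround the core and stabilise it. Of the 26, 23 had a higher mean in DBA, and the DBA pools lay above the 129 pools in 10 and below in none. Ndufb11, an X-linked subunit of the membrane arm, had log2 levels of 7.59 and 7.79 in DBA female and male pools, against 7.41 and 6.95 in 129 female and male pools. Its difference was 0.51 ± 0.18 (SE, adjusted p = 0.38), the groups did not overlap, and the 129 male pool was below background. Ndufa2 followed at 0.43, of which 0.04 was seen in females and 0.82 in males.

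At the other end of the accessory subunits stood Ndufs5 at -0.14, with all 4 pools below background, Ndufc2 at -0.05 and Ndufb10 at -0.02. Ndufab1, the mitochondrial acyl carrier protein that LYR motif proteins bind, differed by 0.06 in females and 0.15 in males. Over the 26 the median difference was -0.02 in females and 0.29 in males.

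The assembly factors of complex I had a median difference of 0.19, and 7 of 8 were positive. Ndufaf2 differed by 0.34, with 0.15 in females and 0.53 in males. Ndufaf3, an early assembly factor, went opposite ways in the sexes, at -0.23 in females and 0.80 in males. Ndufaf1 did the same at -0.17 and 0.76. Ndufaf6 had the one negative mean difference of this group, -0.10.

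Complex II, succinate dehydrogenase, links the chain to the tricarboxylic acid cycle. All 4 subunits had a higher mean in DBA and none passed the threshold. Sdha, the flavoprotein that oxidises succinate, had log2 levels of 12.36 and 12.32 in DBA female and male pools, against 12.14 and 11.94 in 129 female and male pools. The groups did not overlap, and the difference was 0.30 ± 0.12 (SE, adjusted p = 0.43). Sdhd, a membrane anchor, had 10.60 and 10.84 in DBA female and male pools, against 10.57 and 10.05 in 129 female and male pools, a difference of 0.41 ± 0.20 (SE, adjusted p = 0.49) that lay almost wholly in the males.

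Sdhc, the other anchor, had 10.78 and 10.86 in DBA female and male pools, against 10.73 and 10.48 in 129 female and male pools (difference 0.22 ± 0.13, SE, adjusted p = 0.56). Its groups did not overlap, but the female pools differed by 0.05. Sdhb, the iron-sulfur subunit, had 10.37 in both DBA pools, against 10.45 and 10.13 in 129 female and male pools, so that both DBA values lay between the 129 values (difference 0.08 ± 0.14, SE, adjusted p = 0.84).

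All 8 subunits of complex III had a higher mean in DBA, with a median of 0.19. After Uqcrfs1 came Uqcrc2 at 0.23 and Uqcrc1 at 0.21, the core proteins of the matrix side, and Uqcrh, the hinge protein, at 0.21. Uqcr11 at 0.15, Uqcrq at 0.08 and Uqcrb at 0.04 were closest to 0. Cyc1, which carries the haem that reduces cytochrome c, had log2 levels of 11.38 and 11.59 in DBA female and male pools, against 11.39 and 11.22 in 129 female and male pools. Its groups overlapped, with a difference of 0.18 ± 0.13 (SE, adjusted p = 0.64). The pseudogene Uqcrh-ps1 was below background in all 4 pools.

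Cytochrome c, encoded by Cycs, carries electrons from complex III to complex IV. Its brightest probe set had log2 levels of 11.73 and 11.85 in DBA female and male pools, against 11.71 and 11.56 in 129 female and male pools. The groups did not overlap, and the difference was 0.16 ± 0.12 (SE, adjusted p = 0.65). The other 4 probe sets under this symbol gave differences of 0.35, 0.10, 0.65 and 0.65, the last 2 of which hold identical values and count as 1 measurement. Cytochrome c has many processed copies in the mouse genome, so the source of each probe set's signal is uncertain.

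Complex IV, cytochrome c oxidase, was represented by 10 widely expressed subunits, of which 8 had a higher mean in DBA and 5 had separated pools. Cox5a, which joins early in assembly, had log2 levels of 10.14 and 10.22 in DBA female and male pools, against 9.69 and 9.36 in 129 female and male pools. Its groups lay apart in both sexes, by 0.45 in females and 0.86 in males. With a difference of 0.65 ± 0.14 (SE, adjusted p = 0.21), a 95% confidence interval of 0.30 to 1.01 and a ratio of 1.56, Cox5a came next to Lyrm7 but did not pass the threshold.

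Cox5b, a zinc-binding subunit, had log2 levels of 11.97 and 11.99 in DBA female and male pools, against 11.71 and 11.48 in 129 female and male pools. The groups did not overlap (difference 0.38 ± 0.12, SE, adjusted p = 0.35). A dimmer probe set of the gene, below the background reference, differed by -0.08, and with the probe sets averaged the difference was 0.15 (limma, adjusted p = 0.65). Ndufa4, named for complex I and later placed in complex IV, differed by 0.39. Cox4i1 had 11.18 and 11.32 in DBA female and male pools, against 11.36 and 10.79 in 129 female and male pools, with overlapping groups. The negative differences were small, -0.04 for Cox7c, which was below background in 3 pools, and -0.02 for Cox8a. Cox7a2l, a factor that joins complexes III and IV into supercomplexes, differed by 0.23 with separated pools.

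The 8 isoforms known mainly from muscle, lung, testis or hypoxic cells had 5 positive differences, with DBA pools above in 3 and below in 2, and 4 of the 8 were below background in all 4 pools. Cox6a2, the isoform of heart and skeletal muscle, had log2 levels of 8.97 and 9.34 in DBA female and male pools, against 9.73 and 9.45 in 129 female and male pools. It was lower in both DBA pools, by -0.44 ± 0.17 on average (SE, adjusted p = 0.42, ratio 0.741), and the gap was -0.76 in females and -0.11 in males. Ndufa4l2, a paralogue of Ndufa4 known to be induced by hypoxia, had 6.40 and 6.71 in DBA female and male pools, against 6.94 and 6.85 in 129 female and male pools, a difference of -0.34 at levels below background throughout.

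Cox6b2, a testis isoform, had log2 levels of 7.21 and 7.25 in DBA female and male pools, against 6.98 and 6.93 in 129 female and male pools. The groups did not overlap (difference 0.28 ± 0.11, SE, adjusted p = 0.41), both 129 pools were below background, and against the background reference the DBA level was at least 1.05-fold higher. Cox7a1 of muscle differed by 0.26 and Cox4i2 of lung by 0.19, both with DBA pools above. Cox7b2, Cox8b and Cox8c were below background in all 4 pools, differed by 0.09, 0.05 and -0.04, and had overlapping groups.

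Other genes of mitochondria and energy metabolism were taken from lists of their functions, and no gene of any of these lists passed the threshold. Their counts, too, stand against genes above background, with 60% positive, 29.6% with DBA pools above and 17.8% with them below. Of 19 subunits and factors of complex V, the ATP synthase, 15 had a higher mean in DBA, the pools lay apart with DBA above in 12 and below in none, and the median difference was 0.10. Atp5e, the epsilon subunit of the rotor stalk, differed by 0.68 ± 0.21 (SE, adjusted p = 0.33), Atp5l by 0.38 and Atp5j2 by -0.31. Of 36 further assembly factors, 31 were positive with a median of 0.18. DBA pools lay above in 12 (33.3%), near the share of genes above background, and below in 1, Atpaf1, at -0.28. Those with the smallest p were Cox14, an assembly factor of complex IV, at 0.55 (adjusted p = 0.33), Sdhaf2, of complex II, at 0.31 and Coa7, of complex IV, at 0.29.

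Iron-sulfur cluster and LYR motif genes share the chemistry or the motif of Lyrm7. Of the 15 measured, 13 were positive, DBA pools were above in 5 and below in 1, and the median was 0.13. Hscb, a co-chaperone that passes iron-sulfur clusters on and binds LYR motifs in human cells, had log2 levels of 8.88 and 9.22 in DBA female and male pools, against 8.58 and 8.32 in 129 female and male pools. Its groups did not overlap, and the difference was 0.60 (adjusted p = 0.29). Among other LYR motif genes Etfrf1, formerly Lyrm5, differed by 0.61 (adjusted p = 0.29) and Lyrm2 by 0.32.

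All 15 measured genes of the tricarboxylic acid cycle had a higher mean in DBA, with a median of 0.19, and DBA pools above in 8. Suclg2, a subunit of the GTP-forming succinyl-CoA ligase, had log2 levels of 10.72 and 10.84 in DBA female and male pools, against 10.29 and 10.04 in 129 female and male pools, a difference of 0.61 (adjusted p = 0.20) with no overlap. Pdha1 of pyruvate dehydrogenase differed by 0.31 and Suclg1 by 0.29. Of 17 outer membrane and import genes, all 17 were positive with a median of 0.16, and the genes with the smallest p were Vdac3 at 0.30, Hspe1 at 0.23 and Tomm40 at 0.26. In glycolysis, which runs outside mitochondria, 10 of 15 were positive (66.7%), and DBA pools were above in 4 (26.7%) and below in 2 (13.3%). These shares are near those of genes above background (60%, 29.6% and 17.8%). The median was 0.10, with Hk3 at -0.24, Pfkl at 0.18 and Pgk1 at 0.19.

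Of 13 regulators of mitochondrial gene expression, 11 had a higher mean in DBA, with a median of 0.17, and DBA pools lay above in 7 and below in 1. Ppargc1a, a coactivator known to raise mitochondrial gene expression in muscle and brown fat, had log2 levels of 7.29 and 7.50 in DBA female and male pools, against 6.40 and 6.69 in 129 female and male pools. The groups did not overlap, and the difference was 0.85 ± 0.15 (SE, adjusted p = 0.13). Both 129 pools were below background, and against the background reference the DBA level was at least 1.17-fold higher. Tfb2m, a mitochondrial transcription factor, differed by 0.45 (adjusted p = 0.33) and Gabpa, an ETS factor, by 0.27. Tfb1m went the other way at -0.30 with both DBA pools below, and Esrra differed by -0.02. Nrf1 at 0.09 and Ppargc1b at 0.04 were also close to no difference. In each of these lists, as in the respiratory chain, the median difference was larger in males than in females, for example 0.42 in males and 0.01 in females for the tricarboxylic acid cycle, and 0.37 in males and -0.02 in females for the outer membrane and import.

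**Figure D5:**
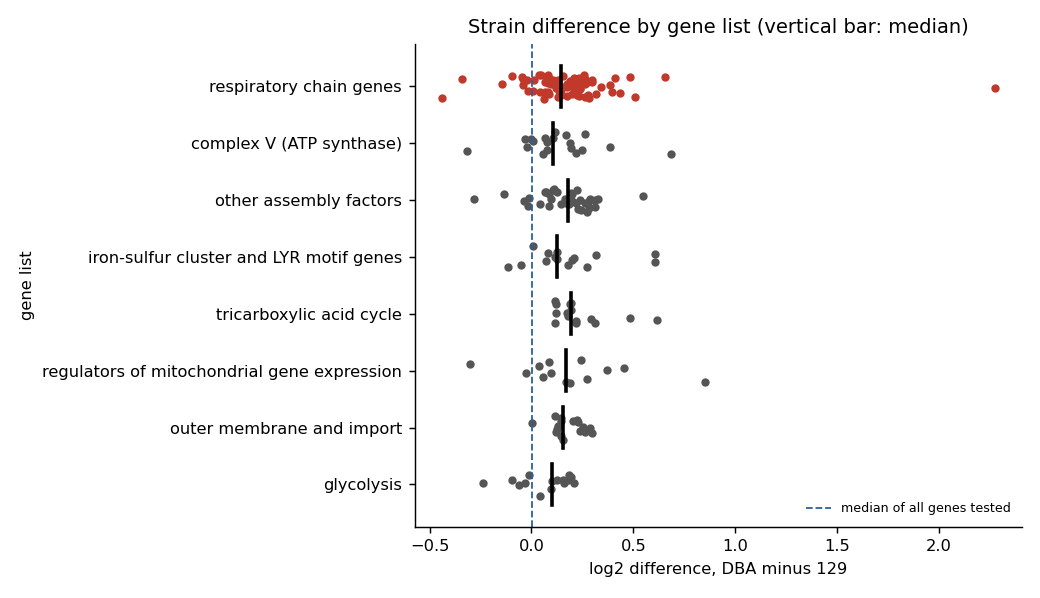
Log2 difference, DBA minus 129, for every measured gene of the respiratory chain and of 7 lists of other mitochondrial or metabolic genes, with a black bar at each median and a dashed line at the median of all genes. The medians lie between 0.10 and 0.19 in all of them, and Lyrm7 at 2.27 is the only point above 1.

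The labelled cell type was checked with marker genes. Mean log2 levels of 16 macrophage markers, among them Adgre1, Cd68 and Lyz2, were 12.32 and 12.20 in DBA female and male pools, against 12.03 and 11.85 in 129 female and male pools. DBA pools lay above in 13 of these 16 and below in 2, against 29.6% and 17.8% of genes above background. The 11 B cell markers averaged 9.74 and 8.72 in DBA female and male pools, against 8.51 and 8.29 in 129 female and male pools, with DBA above in 10. The remaining marker, Cd22, had both DBA pools below, at -1.84.

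The mean of the B cell markers was highest in the DBA female pool and lowest in the 129 male pool. The 129 male pool was the lowest of the 4 for 10 of the 11 B cell markers and 11 of the 16 macrophage markers, as it was for 59 of the 75 respiratory chain genes. The 12 T and NK cell markers averaged between 7.25 and 7.40, the 12 neutrophil markers between 7.35 and 7.66, and the 8 mast cell markers between 7.06 and 7.48 over the 4 pools, against the background reference of 7.17. These means hide single bright markers. Il7r lay between 12.51 and 12.98, Csf3r between 11.78 and 12.49 and Cpa3 between 10.05 and 10.45 over the pools. DBA pools lay above in 2 and below in 5 of the T and NK cell markers. For the neutrophil markers they lay above in 4, all with an unadjusted p under 0.05, and below in 1. The 11 fibroblast and mesothelial markers averaged 8.63 and 9.07 in DBA female and male pools, against 9.04 and 8.93 in 129 female and male pools. DBA pools lay below in 5 of these 11, among them the collagen gene Col3a1 at -0.58, Pdgfra at -0.75 and Col1a2 at -0.53. These 5 had an unadjusted p under 0.05 but did not pass the threshold. In 2 markers the DBA pools lay above, Upk3b at 0.61 and Lrrn4 at 0.55. Of all these markers Mcpt4, a mast cell protease, passed the threshold, at 1.80 (adjusted p = 0.024). Another mast cell marker, Tpsab1, went the other way at -0.94 with both DBA pools below, and the pools of the other 6 overlapped. Both 129 pools were below background for Mcpt4, and against the background reference the DBA level was at least 1.44-fold higher. The part of other cells in the differences of the respiratory chain genes was not tested.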

How the data were processed

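The authors measured 4 RNA pools on Affymetrix whole-transcript arrays and deposited log2 values for 41345 probe sets, made with Affymetrix Expression Console. How probes were summarised and normalised, and with which program version, is not given in these sources. Values were taken as deposited. Array medians lay between 7.65 and 7.70 and no arrays were identical. The number of arrays limits the precision.

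Probe sets with 1 gene symbol (23521) were kept, and the brightest probe set stood for each of 1082 genes with several. Left out were 1820 probe sets with several symbols and 16004 unnamed ones. No kept probe set was matched to the mitochondrially encoded subunits, which are not analysed here. The strains were compared with limma 3.58.1 under R 4.3.3 (lmFit, then eBayes, strain as the only term, 2 residual degrees of freedom plus 3.73 from the prior, two-sided), with Benjamini-Hochberg adjustment over 22180 genes. An exact permutation test of 2 pools against 2 cannot go below p = 0.33, so none was used. Female and male pools were compared with strain in the model. The labels name no separate cultures or repeats, so p-values measure only the spread between these pools. The fit was tested on simulated data that held known changes. At an adjusted p under 0.05 it recovered 1.4% of changes of 0.5 log2 units, 50.2% of those of 1 and 95.2% of those of 2. A gene that did not pass the threshold is therefore not shown to be equal between the strains.

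Named are the genes spelled out in the selection, those past the threshold, those with an unadjusted p under 0.05 and separated pools, the tissue-restricted isoforms, up to 3 genes of each list by p and 5 genes on each side of Lyrm7. Further respiratory chain, list and marker genes given with values, and the motifs, were chosen after their values or sequences were seen. The genes described and all lists were chosen with earlier results of these data known. The alternatives were sex as a block, another prior, a common median, quantile normalization, dropping dim genes, averaged probe sets, every probe set tested and each pool left out. Genes above background as a comparison were added after seeing the data.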

Additional observations from a re-analysis of the deposited data

Results flagged for a closer look

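For 35 of the 75 genes (46.7%) the DBA minus 129 difference had opposite signs in the female and the male pools. This share is close to the 45.9% of all genes, so the count is not a result about the respiratory chain. Among the named ones this held for Bcs1l (-0.14 in females and 0.35 in males), Cyc1 (-0.0143 and 0.37), Sdhb (-0.0768 and 0.25), Cox8b (0.28 and -0.18) and Cox8c (-0.25 and 0.17). Each value rests on 1 pool against 1, and the difference between the sexes was not tested. Groups of 2 pools are too small to look for a pool that stands apart.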

How the results depend on the processing

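Lyrm7 kept its direction in all 10 alternatives in which it was tested, with differences of 2.12 to 2.43 and adjusted p between 0.0034 and 0.16, and passed the threshold in 7, among them the fit that pairs the pools by sex as a block (adjusted p = 0.027). It was not past it with every probe set tested or without either 129 pool, so that the count of respiratory chain genes called higher, 1, was 0 there and also with dim genes removed, where Lyrm7 is not in the fit (0 to 1 with a pool left out). The 83 genes called overall became 47 with sex as a block, 129 with a trended and robust prior, 0 with every probe set tested (limma, 3471 of 41345 at an unadjusted p under 0.05) and 6 to 186 with a pool left out, lowest without the 129 male pool and highest without the DBA male pool. The 6 respiratory chain genes higher at an unadjusted p under 0.05 became 3 with sex as a block, 13 with a common median, 3 with every probe set tested and 2 to 19 with a pool left out. The 1 lower became 0 with sex as a block, 2 with a trended and robust prior, 0 with a common median, 0 with every probe set tested and 0 to 2 with a pool left out. The 35 with DBA pools above became 28 after quantile normalization, 33 with dim genes removed and 44 with a common median. With a pool left out, which makes separation easier, they became 38 to 65. The 2 with DBA pools below became 4 to 13 with a pool left out, 4 after quantile normalization and 1 with dim genes removed. The median difference of the 75 genes, 0.15, was 0.08 after quantile normalization, 0.18 with a common median, 0.07 without the 129 male pool and 0.25 without the 129 female pool. After quantile normalization the signs of Sdhb (-0.0211) and Cox8c (0.0180) turned. With a pool left out, Bcs1l ranged from -0.0237 (without the DBA male pool, and -0.0064 without the 129 male pool) to 0.237, Sdhb from -0.0775 (without the 129 male pool) to 0.247, Cox7b2 from -0.0610 (without the 129 male pool) to 0.248, Cox8b from -0.135 (without the 129 female pool) to 0.232 and Cox8c from -0.217 to 0.136 (without the 129 female pool). The cause of these shifts was not tested.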
